A study of Mus musculus with 8 samples.

Results

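The RNA of 9 genes of nucleic acid sensing and interferon signalling was followed in mouse embryos at the 2-cell stage. They were 9 of the 30701 genes that the arrays measured under a single gene name. The sensors were Tlr9, Tlr3 and Tlr7, the adaptor was Myd88, the transcription factors were Irf3, Irf7, Irf9 and Stat2, and the effector was Ifitm3. Each was annotated to 1 transcript cluster, the array's unit for a gene, and none of these clusters held a value too large for a log2 level. They were selected on pathway membership and on measured values: the levels of Tlr9 and Stat2 under the full treatment, set against Trim21 mRNA, were known when the genes were chosen. Values of that comparison are therefore given as a description with no p-value, and its counts only beside those of all genes.

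Toll-like receptors 3, 7 and 9 sit in endosomes, where TLR3 binds double-stranded RNA, TLR7 single-stranded RNA and TLR9 DNA rich in unmethylated CpG. TLR7 and TLR9 signal through the adaptor MYD88 to IRF7 and NF-kB, whereas TLR3 signals through TRIF to IRF3, and both routes end in transcription of type I interferons. Secreted interferon then acts through its receptor and JAK kinases on STAT2, which joins IRF9 in the complex ISGF3. ISGF3 binds the interferon-stimulated response element (ISRE) of target genes, among them Ifitm3, whose membrane protein hinders the entry of viruses. Cells of the early embryo are known for a weak interferon response.

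The embryos came from B6C3F1 x CD1 matings after hormone stimulation of the females, and every array held RNA of 1 pool of 100 embryos. There were 4 groups of 2 pools. Non-manipulated embryos stayed in the incubator and received no injection of any kind. The second group received Trim21 mRNA in the ooplasm at the middle of the pronuclear stage, and the third received the same mRNA plus a COPS3 antibody (called the full treatment here). The fourth group is titled as receiving the antibody without Trim21 mRNA, and the protocol does not describe how it was treated. TRIM21 is a ubiquitin ligase that recognises antibodies and sends the bound protein to the proteasome, and COPS3 belongs to the COP9 signalosome, which acts on cullin ubiquitin ligases. No group received a control antibody. According to the labels, cleavage was normal in the groups without antibody, whereas both antibody groups were stunted and held many zygotes that had not divided. The protocol gives 28 h of culture and the age label 24 h. Per the labels, a group's 2 pools were made on 1 day and different groups on different days of a week, so day and group cannot be told apart, and a p-value measures only the spread between pools of 1 day. In such bulk RNA, fewer cells of a type and less RNA per cell cannot be told apart, and neither can the share of undivided zygotes.

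Sequences upstream of the genes were read for 8 of the 9 members in RefSeq (GRCm38.p6), and Tlr7 is named only. The ISRE was searched on both strands as GAAA, any 2 bases, GAAA, since it is the element through which STAT2, IRF9 and other IRFs act. It occurred in the 250 bases before the start of 2 members, Myd88 and Stat2, and in 2.98% of all 32851 such windows. A match is a description of letters and does not show a site that is bound. The 2 windows are printed because they hold these elements, with the matches in capitals.
Myd88 (chr9:119340019-119340268, minus strand): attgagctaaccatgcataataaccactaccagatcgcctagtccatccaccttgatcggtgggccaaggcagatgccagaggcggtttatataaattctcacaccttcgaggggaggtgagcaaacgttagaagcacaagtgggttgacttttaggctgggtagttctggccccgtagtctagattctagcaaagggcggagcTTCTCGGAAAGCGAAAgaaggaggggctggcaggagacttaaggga
Stat2 (chr10:128270248-128270497, plus strand): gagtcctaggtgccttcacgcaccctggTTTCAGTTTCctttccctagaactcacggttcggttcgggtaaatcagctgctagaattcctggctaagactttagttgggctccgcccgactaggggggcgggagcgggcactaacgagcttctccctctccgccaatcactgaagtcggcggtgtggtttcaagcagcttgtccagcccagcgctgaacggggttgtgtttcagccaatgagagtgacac
In Myd88 the ISRE match GAAAGCGAAA begins 40 bases before the start. It shares 3 bases with TTCTCGGAA, a match to the gamma-activated sequence (GAS, searched on both strands as TTC, any 3 bases, GAA), which begins 46 bases before the start. GAS matches stood in 7.02% of all windows of this length. In Stat2 the match TTTCAGTTTC lies on the reverse strand, 222 bases before the start. Ifitm3 held no ISRE match upstream, but 2 of them in the first 30 bases from its start, which are printed because Ifitm3 is the interferon target among the members.
Ifitm3 (chr7:141010715-141010744, minus strand): agGAAAAGGAAActtctgaGAAACCGAAAc
The matches begin at bases 3 and 20 and are in capitals, and a GAS match from base 14 overlaps the second. An ISRE match stood in the first 50 bases of 0.408% of all 32851 windows, and a GAS match in 1.15%.

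Pools of the non-manipulated group and of the Trim21 mRNA group agreed closely, with Pearson correlations of 0.9975 and 0.9964 across genes. The 2 pools of the full treatment correlated at 0.9857 and those of antibody alone at 0.9558, and 4615 genes lay more than 2-fold apart between the antibody-alone pools. Of the antibody-alone pools, replicate 1 was further from the non-manipulated arrays (correlations of 0.941 to 0.942) than replicate 2 was (0.975 to 0.976), and the full-treatment pools were further still (0.917 to 0.929). Results that rest on antibody alone are also given without each of its pools where the call changes. The median level over all 65955 transcript clusters used, with or without a gene name, was 4.86 to 5.29 in the 4 arrays with antibody. It was 4.75 to 4.90 in the 4 without. Where arrays were centred on their medians, these were the medians used. Trim21 was at 9.77 to 10.40 in the 4 arrays whose label names its mRNA and at 5.65 to 6.76 in the others. As a guide to low signal, each array's 95th percentile over 1722 olfactory and vomeronasal receptor genes was used. This guide lay at 5.29 to 5.38 in the 4 arrays without antibody and at 5.67 to 6.19 in the 4 with it. Of markers of blood and immune cells 12 of 15 were measured, with mean levels of 4.73 to 5.33 per array. Cd53, a leukocyte surface gene, was at 8.13 in antibody-alone replicate 1 and at 4.11 to 4.83 elsewhere. Markers of cumulus and granulosa cells (10 of 12 measured), oviduct epithelium (7 of 8) and sperm (8 of 8) had mean levels of 4.83 to 5.31, 5.59 to 5.95 and 4.55 to 5.06. Among them Inha, an inhibin subunit of granulosa cells, was at 10.32 in non-manipulated replicate 2 and at 5.90 to 7.67 elsewhere. Epcam, an epithelial adhesion gene, was at 8.14 and 8.55 under the full treatment and at 10.17 to 10.75 elsewhere. Stage markers differed with the antibody too. The 7 measured markers of the late 2-cell embryo averaged 9.91 to 10.19 in the 4 arrays without it, 10.38 and 11.09 with antibody alone and 11.62 and 11.65 under the full treatment. The 8 oocyte markers averaged 11.80 to 12.31 without it and 12.32 to 13.00 with it, and they did not all go 1 way: Zp3, a zona pellucida gene, was at 13.27 and 13.19 without manipulation and at 11.03 and 10.69 under the full treatment. The part of these markers in the results was not tested.

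**Figure D1:**
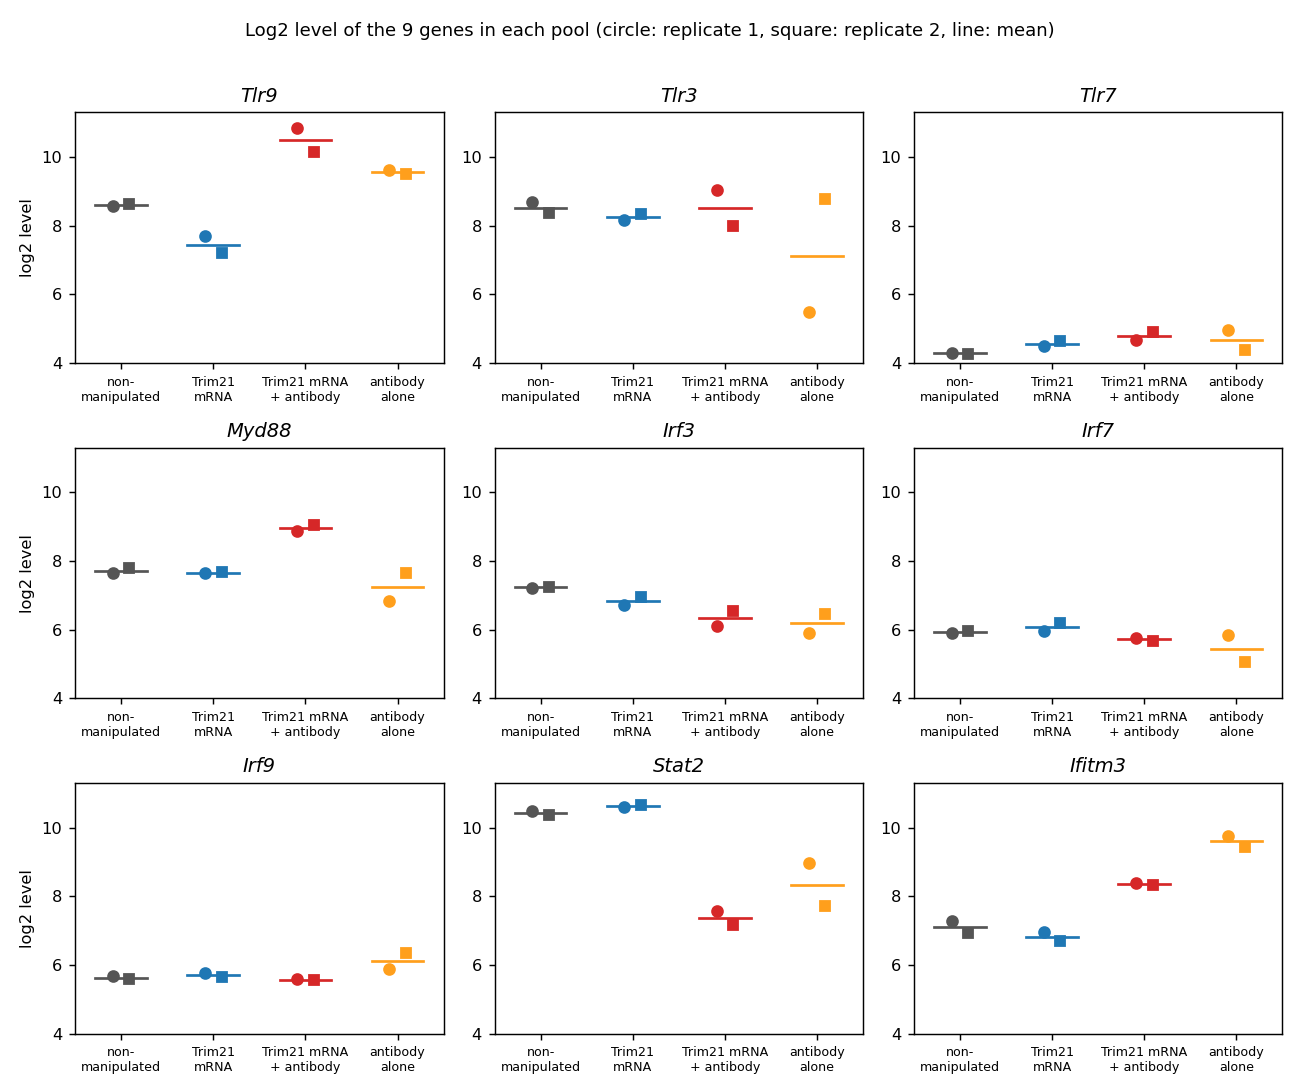
Deposited log2 level (vertical axis) of each of the 9 genes in the 8 pools, by group. Circles (replicate 1) and squares (replicate 2) are single pools and bars the mean of a group's 2 pools. Tlr9 is highest under the full treatment (10.84 and 10.14), Stat2 is lowest there (7.57 and 7.18), and Ifitm3 is highest with antibody alone (9.76 and 9.45).

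Tlr9 was higher than in non-manipulated embryos in both antibody groups, and passed the test under the full treatment. Tlr9, on GRCm38.p6 chr9:106222598-106226876, had log2 levels of 8.57 and 8.63 in the 2 non-manipulated pools, 7.70 and 7.20 after Trim21 mRNA, 10.84 and 10.14 under the full treatment and 9.62 and 9.50 in the antibody-alone pools. The 4 groups did not overlap, and the order of their levels from low to high was Trim21 mRNA, non-manipulated, antibody alone and full treatment. Under the full treatment Tlr9 rose 3.71-fold over non-manipulated embryos (log2 difference 1.89 ± 0.27, SE, 2 pools a group; limma, adjusted p = 0.00273), a comparison that shares the full-treatment arrays with the contrast known when the genes were chosen. That p-value is therefore not independent of the choice. With antibody alone the difference from non-manipulated embryos was 0.96 ± 0.27 and did not pass the threshold (adjusted p = 0.0742). It passed after quantile normalization (1.18, adjusted p = 0.0324), after cyclic loess (1.22, 0.027), with a mean level of at least 6 (0.0497) and without antibody-alone replicate 2 (1.02, 0.0438), and over all 19 alternatives its adjusted p ran from 0.027 to 0.329. Between the neighbours at the top, the full treatment exceeded antibody alone by 0.93 ± 0.27 (adjusted p = 0.0677). That step passed after quantile normalization (1.44, adjusted p = 0.00933), after cyclic loess (1.23, 0.018), with the level minimum (0.0455) and without full-treatment replicate 2 (1.28, 0.0413), in a range of 0.00933 to 0.446. At the bottom, Trim21 mRNA lay at −1.15 ± 0.27 from non-manipulated embryos (adjusted p = 0.553). As deposited, none of the 3 steps between neighbours passed the adjusted threshold, although their pools did not overlap. Against Trim21 mRNA, the contrast known when the genes were chosen, the full treatment was higher by 3.04 ± 0.27, or 8.22-fold.

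The level of Tlr3, on chr8:45395665-45411075, showed no difference between groups beyond the spread of its pools. Its log2 levels were 8.69 and 8.37 without manipulation, 8.18 and 8.34 after Trim21 mRNA, 9.03 and 7.98 under the full treatment and 5.48 and 8.77 in the antibody-alone pools. The antibody-alone pools lay 3.29 apart, and only replicate 1 of that group fell outside the range of 7.98 to 9.03 that held the other pools. The mean difference of antibody alone from non-manipulated embryos was −1.41 ± 0.95 (adjusted p = 0.343). Without replicate 2 it was −3.05 (adjusted p = 0.00229) and without replicate 1 it was 0.24 (adjusted p = 0.757), so that a single pool turned its direction and its call. Against antibody alone the full treatment was at 1.38 ± 0.95 (adjusted p = 0.404), at 3.02 without antibody-alone replicate 2 (adjusted p = 0.00268) and at −0.27 without replicate 1. In those fits the remaining pool is assumed to vary as the other groups do. The full treatment differed from non-manipulated embryos by −0.03 ± 0.95 (adjusted p = 0.984).

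Tlr7, on chrX:167303380-167330574, stayed at the low end of the scale in all pools. It was at 4.30 and 4.27 without manipulation, 4.51 and 4.63 after Trim21 mRNA, 4.68 and 4.91 under the full treatment and 4.96 and 4.38 in the antibody-alone pools. All 8 values lay below the olfactory and vomeronasal guide of their array. Its differences from non-manipulated embryos were 0.51 ± 0.22 under the full treatment (adjusted p = 0.111) and 0.39 ± 0.22 with antibody alone (adjusted p = 0.277). The value under the full treatment passed with array weights (adjusted p = 0.0255) and with only the groups compared (0.0363). It also passed without either antibody-alone pool (0.51). The value of antibody alone was 0.68 without its replicate 2 and 0.095 without its replicate 1. No level of Tlr7 above this guide was detectable. The 1722 receptor genes behind the guide had median differences of 0.64 and 0.44 in the same 2 comparisons, and both values of Tlr7 lay below them.

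Myd88, which carries the signal of TLR7 and TLR9, rose under the full treatment against both non-manipulated embryos and antibody alone. Myd88, on chr9:119335934-119340018, was at 7.64 and 7.80 in non-manipulated pools, 7.64 and 7.69 after Trim21 mRNA, 8.88 and 9.06 under the full treatment and 6.84 and 7.64 in the antibody-alone pools. The full-treatment pools lay above all 6 other pools, and antibody-alone replicate 1 lay below all others. The full treatment was 2.38-fold over non-manipulated embryos (1.25 ± 0.26, adjusted p = 0.0134) and 3.32-fold over antibody alone (1.73 ± 0.26, adjusted p = 0.00607). Antibody alone differed from non-manipulated embryos by −0.48 ± 0.26 (adjusted p = 0.265). That value was −0.88 without antibody-alone replicate 2 (adjusted p = 0.00596) and −0.08 without replicate 1 (adjusted p = 0.787). The rise over non-manipulated embryos missed the threshold when arrays were centred on their medians (0.79, adjusted p = 0.157), and also without non-manipulated replicate 1 (adjusted p = 0.0941), non-manipulated replicate 2 (0.0672) or full-treatment replicate 2 (0.0773). The rise over antibody alone missed it without full-treatment replicate 2 (adjusted p = 0.0505) and when only these 4 arrays were fitted (0.0603). Against Trim21 mRNA the full treatment was higher by 1.31 ± 0.26.

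Among the interferon regulatory factors, Irf3 was lower in both antibody groups than in non-manipulated embryos. Irf3, the factor that TLR3 and cytosolic sensors activate, lies on chr7:44997648-45002848. It exceeded the low-signal guide on 7 arrays, and not on antibody-alone replicate 1. Its log2 levels were 7.21 and 7.26 in non-manipulated pools, 6.72 and 6.95 after Trim21 mRNA, 6.12 and 6.56 under the full treatment and 5.92 and 6.45 in the antibody-alone pools. The 2 groups with antibody overlapped each other and lay below the 2 groups without it. Irf3 fell 2.07-fold with antibody alone (−1.05 ± 0.24, adjusted p = 0.0394) and by 0.90 ± 0.24 on the log2 scale under the full treatment (adjusted p = 0.0306), each against non-manipulated embryos. The 2 antibody groups differed by 0.16 ± 0.24 (adjusted p = 0.727). After Trim21 mRNA, Irf3 lay at −0.40 ± 0.24 from non-manipulated embryos (adjusted p = 0.936), and these pools did not overlap. From Trim21 mRNA the full treatment lay at −0.50 ± 0.24, a value given without a test. Both calls against non-manipulated embryos stood near the threshold. Over the alternatives the adjusted p ran from 0.00476 to 0.223 with antibody alone, where it exceeded 0.05 in 10 of 19, and from 0.00539 to 0.151 under the full treatment, where it did so in 7 of 19. Without non-manipulated replicate 1 it was 0.221 and 0.135 in turn, without replicate 2 of that group 0.223 and 0.151, and without either Trim21 mRNA pool 0.0868 and 0.0603. Leaving out replicate 1 of the antibody group concerned gave 0.0545 with antibody alone and 0.12 under the full treatment.

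With the values as deposited, Irf7 and Irf9 passed no test on all 8 arrays. Irf7, which drives interferon genes downstream of MYD88, lies on chr7:141263183-141266499. It was at 5.92 and 5.97 without manipulation, 5.96 and 6.19 after Trim21 mRNA, 5.77 and 5.68 under the full treatment and 5.85 and 5.05 in the antibody-alone pools. Its 4 pools without antibody lay above the 4 with it, and the antibody-alone pools were 0.80 apart. The low-signal guide was 5.29 to 5.38 on the 4 arrays without antibody and 5.67 to 6.19 on the 4 with it. Irf7 exceeded it on the 4 arrays without antibody only, a crossing that rests partly on the higher guide with antibody. Its difference from non-manipulated embryos was −0.22 ± 0.26 under the full treatment (adjusted p = 0.524) and −0.50 ± 0.26 with antibody alone (adjusted p = 0.256). Without antibody-alone replicate 1 the latter was −0.90 (adjusted p = 0.0125), and without replicate 2 it was −0.095 (adjusted p = 0.63). With arrays centred on their medians the value under the full treatment was −0.68 (adjusted p = 0.0423). The full treatment lay at 0.28 ± 0.26 from antibody alone (adjusted p = 0.559), at 0.68 without antibody-alone replicate 1 (adjusted p = 0.0188) and at −0.12 without replicate 2 (adjusted p = 0.611). Irf9, the DNA-binding partner of STAT2, lies on chr14:55603985-55610030. It was at 5.68 and 5.58 without manipulation, 5.77 and 5.66 after Trim21 mRNA, 5.58 and 5.56 under the full treatment and 5.89 and 6.34 in the antibody-alone pools. The antibody-alone pools were the highest 2, by 0.49 ± 0.19 over non-manipulated embryos (adjusted p = 0.153) and by 0.71 without antibody-alone replicate 1 (adjusted p = 0.0182) or 0.26 without replicate 2 (adjusted p = 0.164). The full treatment lay at −0.55 ± 0.19 from antibody alone (adjusted p = 0.109), at −0.77 without antibody-alone replicate 1 (adjusted p = 0.00776) and at −0.32 without replicate 2 (adjusted p = 0.143). The other 6 pools lay between 5.56 and 5.77. It exceeded the low-signal guide on 5 arrays.

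Stat2, chosen with its level under the full treatment known, had the largest fall among the members. Stat2, on chr10:128270498-128292853, was at 10.48 and 10.36 in non-manipulated pools, 10.60 and 10.66 after Trim21 mRNA, 7.57 and 7.18 under the full treatment and 8.96 and 7.71 in the antibody-alone pools. The 4 pools without antibody lay together above 10, and all 4 with it lay below 9, with the full treatment lowest and no overlap between groups. Stat2 fell 8.25-fold under the full treatment (−3.05 ± 0.38, adjusted p = 0.00148), on full-treatment arrays that were also in the choosing contrast. That call was kept under all 19 alternatives, but neither its p-value nor that count is independent of the choice. With antibody alone Stat2 fell 4.24-fold (−2.09 ± 0.38, adjusted p = 0.0203). That second call was lost without non-manipulated replicate 1 (adjusted p = 0.156), non-manipulated replicate 2 (0.13) or either Trim21 mRNA pool (0.0539), and when only the 4 arrays compared were fitted (0.127). Its difference under Trim21 mRNA was 0.21 ± 0.38 (adjusted p = 0.97). The full treatment lay at −0.96 ± 0.38 from antibody alone (adjusted p = 0.159), at −1.58 without antibody-alone replicate 2 (adjusted p = 0.0018) and at −0.34 without replicate 1 (adjusted p = 0.212). Against Trim21 mRNA, a value known when the gene was chosen, the full treatment was lower by 9.55-fold. The fall of Stat2 lay within the middle 95% of genes of like level, meaning genes whose mean level was within 0.5 of its own. Those genes ran from −3.63 to 1.67 under the full treatment and from −2.66 to 1.54 with antibody alone.

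Ifitm3 rose in both antibody groups, and more without Trim21 mRNA than with it. Ifitm3, on chr7:141009590-141010744, was at 7.27 and 6.94 in non-manipulated pools, 6.96 and 6.70 after Trim21 mRNA, 8.39 and 8.33 under the full treatment and 9.76 and 9.45 in the antibody-alone pools. The 3 levels of non-manipulated, full treatment and antibody alone did not overlap, while Trim21 mRNA overlapped the non-manipulated pools. With antibody alone Ifitm3 rose 5.66-fold (2.50 ± 0.20, adjusted p = 0.00212), and under the full treatment 2.39-fold (1.26 ± 0.20, adjusted p = 0.00394). The rise with antibody alone lay above the middle 95% of genes of like level, which ran from −2.25 to 1.47. That call was lost under 1 alternative, the fit of only the groups compared (adjusted p = 0.0677), and the call under the full treatment under none (0.00111 to 0.0434). The full treatment lay 2.37-fold below antibody alone (−1.25 ± 0.20, adjusted p = 0.00692), a call lost with array weights (0.137) and with only the groups compared (0.0672). Against Trim21 mRNA the full treatment was higher by 1.53 ± 0.20.

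**Figure D2:**
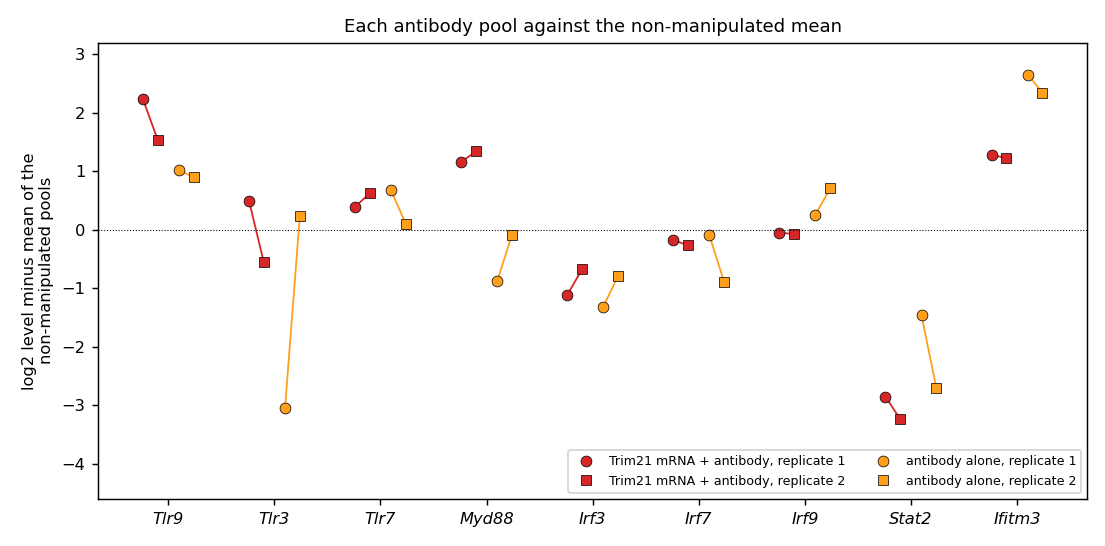
Log2 level of each of the 4 antibody pools minus the mean of the 2 non-manipulated pools (vertical axis), by member. Circles are replicate 1 and squares replicate 2, joined by a line within a group. Tlr3 has the widest gap between pools in both groups, 3.29 with antibody alone and 1.05 under the full treatment, while all 4 pools lie above zero for Tlr9, Tlr7 and Ifitm3 and below it for Irf3, Irf7 and Stat2.

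Across the members, antibody alone against non-manipulated embryos gave 3 calls of 9, which were Ifitm3 higher and Irf3 and Stat2 lower, where 10.0% of all genes were called (2.76% higher and 7.29% lower). Among genes of like level the share called was 13.6% for Irf3, 21.6% for Ifitm3 and 24.3% for Stat2. Over all 9 members that share ran from 1.14% (Tlr7) to 25.1% (Tlr9). The median of the members was −0.48, against 0.18 for all genes, and 7 of 9 members had pools that did not overlap, against 61.1% of all genes. Of all genes called here, 27.4% were higher as reported, 42.2% after quantile normalization, 41.9% after cyclic loess and 11.7% when arrays were centred on their medians. The differences here are taken from 4 arrays that play no part in the contrast by which the genes were chosen. Their SE and p, however, rest on the spread within all 8 arrays, those of the choosing contrast included. The count changed with the arrays fitted. Only Ifitm3 kept its call whichever non-manipulated or Trim21 mRNA pool was left out. With only the groups compared no member was called, and 0 of all genes were. Calls over all genes changed with the arrays left out as well. The full treatment against non-manipulated embryos gave 5 calls of 9, with Tlr9, Myd88 and Ifitm3 higher and Irf3 and Stat2 lower, where 31.7% of all genes were called (15.1% higher and 16.6% lower). With arrays centred on their medians, 14.5% of the called genes were higher, in place of 47.7%. The members' median was −0.03, against 0.24 for all genes, and pools of 7 members did not overlap, against 81.7% of all genes. Among genes of like level the share called was 33.1% for Irf3, 47.3% for Myd88, 47.3% for Ifitm3, 54.4% for Stat2 and 54.9% for Tlr9. Over all 9 members that share ran from 20.7% (Tlr7) to 54.9%. Leaving out 1 array changed the number of calls, among the members and among all genes. The full treatment against antibody alone gave 2 calls, Myd88 higher and Ifitm3 lower, against 14.8% of all genes (4.37% higher and 10.5% lower). Pools of 5 members did not overlap, against 45.7% of all genes. Among genes of like level the share called was 27.7% for Myd88 and 28.0% for Ifitm3. Here too the number of calls changed with the arrays left out, among members and all genes. These comparisons share arrays with the one by which genes were chosen, and with each other. In that choosing comparison, the full treatment against Trim21 mRNA, 3 members lay past the threshold upward and 1 downward, where 8.73% of all genes were higher and 14.5% lower (23.2% in all), and 8 of 9 did not overlap, against 76.8%. Nothing is read from those counts.

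**Figure D3:**
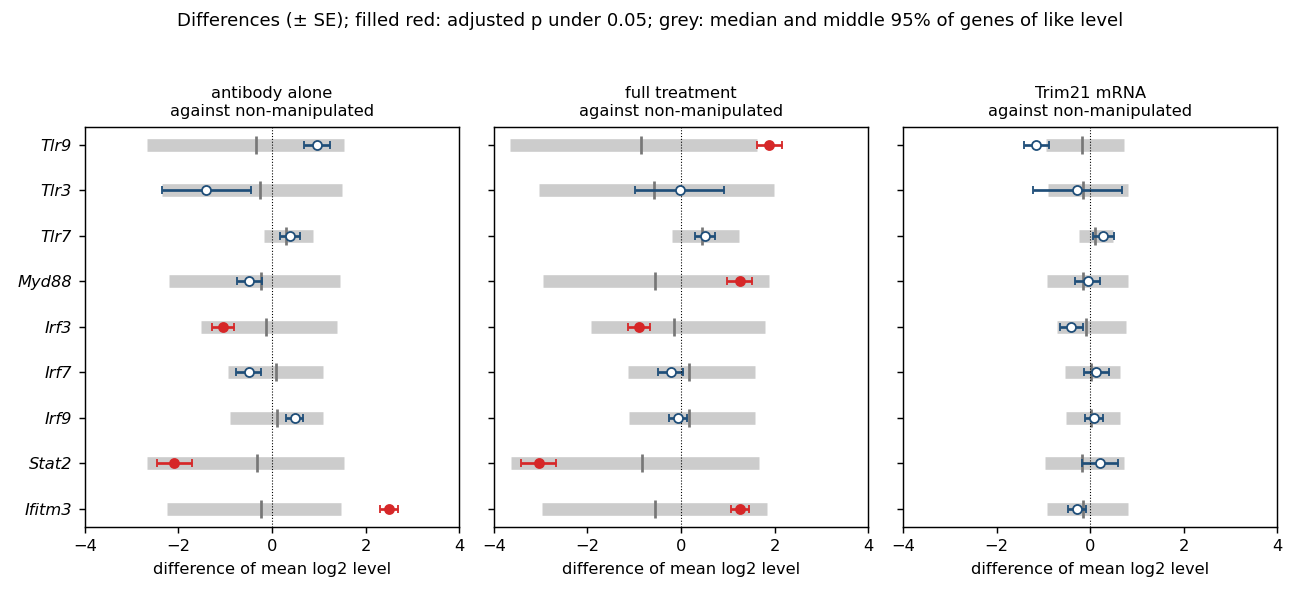
Log2 difference ± SE (horizontal axis) of each member for antibody alone, the full treatment and Trim21 mRNA, each against non-manipulated embryos, with the median and the middle 95% of genes of like level in grey. Red points passed the test. The rise of Ifitm3 with antibody alone (2.50) and the rise of Tlr9 under the full treatment (1.89) lie above the grey range. The full-treatment arrays were also in the contrast known when Tlr9 was chosen, so nothing is read from its place.

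Trim21 mRNA against non-manipulated embryos gave no call among the 9 members in limma, where 0.00326% of all genes, a single gene, passed (0.00326% higher and 0% lower). That gene was Trim21 itself (4.00 ± 0.26, adjusted p = 0.0477). At an unadjusted p under 0.05 there was 1 member, Tlr9 (−1.15 ± 0.27), and 1928 of all genes. Tlr9 passed the adjusted threshold with array weights (adjusted p = 0.00835) and with only the groups compared (0.033). Its value lay below the middle 95% of genes of like level, −0.95 to 0.715. The Trim21 mRNA arrays were also in the contrast by which Tlr9 was chosen, so nothing is read from that place. The members' median was −0.06, against 0.04 for all genes, and the pools of 5 of 9 did not overlap, against 60.6% of all genes.

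The interaction (the contrast by which members were chosen minus that of antibody alone against non-manipulated embryos) was 2.08 ± 0.38 for Tlr9, 1.79 ± 0.37 for Myd88, −1.17 ± 0.54 for Stat2 and −0.97 ± 0.28 for Ifitm3. Its second part was taken against embryos without injection, so antibody and handling cannot be told apart there. The interaction shares the choosing contrast, so it is given without a test and nothing is read from it. Of all genes 4.08% passed (0.625% higher and 3.46% lower).

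The rest of the pathway was given by 154 listed genes other than the members, of which 140 were measured. With antibody alone 17 of the 140 were called (12.1%), 3 higher and 14 lower, against non-manipulated embryos. That share is near the 10.0% of all genes, and the median of all 140 was 0.07. The split was 4 higher and 8 lower after quantile normalization, 5 and 15 after cyclic loess, and 1 and 20 with centred arrays. With only the groups compared, none of the 140 and 0 of all genes were called. Leaving out 1 array raised the count without either antibody-alone pool and lowered it without any other pool. It fell most without a non-manipulated pool. The count over all genes moved in the same way. Among 16 sensors, Ddx41, a sensor of cytosolic DNA, fell by 1.05 ± 0.17 (adjusted p = 0.0156), and Dhx9, an RNA helicase, fell by 1.54 ± 0.32 (0.0294). Adaptors and kinases had 1 higher and 6 lower of 21. Their smallest p were those of Sting1, the adaptor of cytosolic DNA sensing (−1.73 ± 0.19, adjusted p = 0.0054), and Tab1, a partner of the kinase TAK1 (−1.26 ± 0.19, 0.0112). Interferon receptors, JAKs and STATs had 1 higher and 3 lower of 10, with Jak1 at 1.26 ± 0.19 (0.0116) and Ifngr1, a chain of the interferon gamma receptor, at −1.25 ± 0.20 (0.0137). None of 8 genes listed as interferon regulatory factors or their partners and none of 19 interferons was called. Of 48 interferon-stimulated genes 1 was, Ifitm1, which fell by 0.82 ± 0.16 (0.0264). The member Ifitm3 is not among the 48. Above the low-signal guide on no array lay 29 of these 48 and 11 of the 19 interferons. Negative regulators had 2 lower of 18, Rnf125 (−1.19 ± 0.24, 0.0266) and Rnaseh2b (−0.67 ± 0.16, 0.0427).

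**Figure D4:**
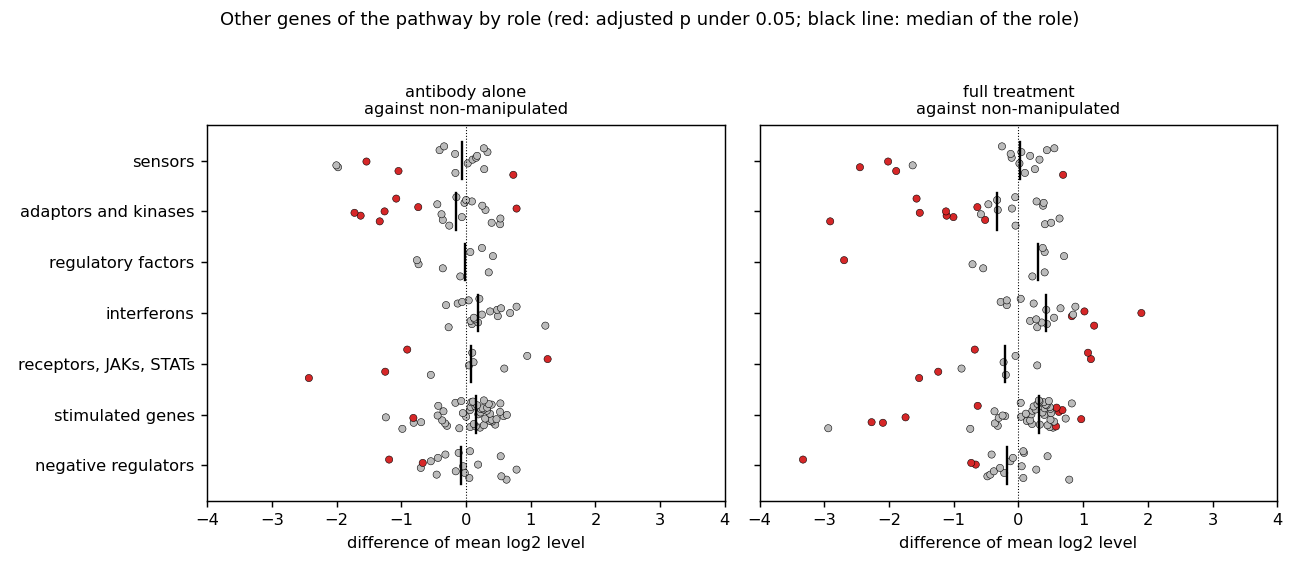
Log2 differences of the other measured pathway genes by role, for antibody alone and the full treatment, each against non-manipulated embryos. Each point is 1 gene, red where it passed the test, and black lines are the median of a role. With antibody alone, the genes called include Sting1 (−1.73) and Jak1 (1.26), and 1 of 48 interferon-stimulated genes passed. Of these 48, 29 lay above the low-signal guide on no array. Ifitm3 is a member and not among them.

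Under the full treatment 34 of the 140 were called (24.3%), 12 higher and 22 lower, against non-manipulated embryos, where 31.7% of all genes were called. With centred arrays the split was 2 higher and 37 lower. The number of calls rose without either antibody-alone pool and fell without any other pool, among the 140 and among all genes. Adaptors and kinases had 8 lower and 0 higher of 21, with Irak2, a kinase of the MYD88 route, at −2.91 ± 0.26 (adjusted p = 0.000344) and Sting1 at −1.53 ± 0.19 (0.0016). Interferon-stimulated genes had 5 higher and 4 lower of 48, with Ifi35 at −2.27 ± 0.35 (0.00391) and Parp9 at −0.63 ± 0.14 (0.0154). Interferons had 4 higher of 19, among them Ifna6 at 1.90 ± 0.34 (0.00719) and Ifna7 at 1.02 ± 0.20 (0.00999). Interferon alpha genes are near copies of each other, and the array's probes may not separate them. Of the 19 interferons 11 lay above the low-signal guide on no array, as did 29 of the 48 interferon-stimulated genes. The 1722 olfactory and vomeronasal genes, with no known role in these embryos, had a median difference of 0.64 in the same comparison, and 27.5% of them were called. The median of the interferons was 0.43 and that of the interferon-stimulated genes 0.32. Ifna6 and Ifna7 each exceeded the guide on 1 array, and the part of low signal in their values was not tested. The interferon receptors, JAKs and STATs had 2 higher and 3 lower of 10, with Jak1 at 1.12 ± 0.19 (0.0057) and Ifngr1 at −1.24 ± 0.20 (0.00455). Sensors had 1 higher and 3 lower of 16, with Ddx41 at −1.89 ± 0.17 (0.000403) and Dhx9 at −2.02 ± 0.32 (0.00421). Of 8 genes listed as interferon regulatory factors or their partners, 1 was called, Irf2bpl, at −2.70 ± 0.26 (0.000508). Irf2bpl is a relative of an IRF2 partner and not itself an interferon regulatory factor. Negative regulators had 3 lower of 18, with Rnf125, a ubiquitin ligase that restrains RIG-I signalling, at −3.33 ± 0.24 (0.000159) and Rnaseh2b, a subunit of ribonuclease H2, at −0.73 ± 0.16 (0.0142). The same 140 genes gave no call for Trim21 mRNA against non-manipulated embryos, and 9 of 140 at an unadjusted p under 0.05. The full treatment against antibody alone gave 11 calls (7.86%), 2 higher and 9 lower, where 14.8% of all genes were called. Those named by the same rule were Irak2 (−1.57), Map3k7 (−0.94), Irf2bpl (−1.94), Ifi35 (−1.57), Rnf125 (−2.14), Dusp11 (−1.02) and Ddx41 (−0.84), which were lower, and Stat3 (0.98) and Oas1b (0.62), which were higher, at adjusted p of 0.00181 to 0.0407. In this comparison too, calls rose without either antibody-alone pool and fell without any other, among the 140 and among all genes.

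Genes whose pattern over the 8 median-centred arrays was most like that of Tlr9 were Pramel47, Abhd4 and Cntnap1, with Pearson r of 0.983, 0.967 and 0.964 over 4412 genes whose range reached 2. For Stat2 they were Impdh1, Bend3 and Nipal1, at 0.996, 0.994 and 0.992. All points share the 8 arrays and the 4 groups, so r is a description.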

How the data were processed

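The authors deposited log2 levels per transcript cluster. Per the labels, cDNA was made with the GeneChip WT Pico kit. Expression Console of Affymetrix is named in the submitters' processing notes, and its version, the summarisation and the build of the array were not found in the sources used here. In the deposited column of non-manipulated replicate 1 a single cell lay over 100, which no log2 level reaches, and its cluster was left out. Of 65956 clusters deposited 65955 were used: 31257 named 1 gene, 1492 several and 33206 none, and 1789 symbols were updated. Of 441 genes on several clusters the highest mean was kept, giving 30701 genes.

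Differences were fitted with limma 3.58.1 in R 4.3.3 as 4 group means over all 8 arrays (4 residual and 6.83 total degrees of freedom, median SE 0.219 for a simple comparison). No further normalization or filter was used. P-values were two-sided and adjusted by Benjamini-Hochberg over all genes of a comparison. Calls needed an adjusted p under 0.05. Precision is limited by having 2 arrays a group. The members, the lists and the tests were chosen with earlier results of these data known. All members were named, and of other pathway genes those called with the smallest p, up to 2 per role in each comparison other than the choosing contrast and the interaction. Replicate numbers do not pair arrays: same-numbered deviations correlated from −0.191 to 0.143. Scripts were tested on simulated data.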

Additional observations from a re-analysis of the deposited data

Results flagged for a closer look

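For Tlr9 the interaction in limma was 2.08 ± 0.38 on the log2 scale. Its first term is the full treatment minus Trim21 mRNA, and its second is antibody alone minus non-manipulated embryos. The second was taken against embryos that received no injection, so antibody and handling cannot be told apart in it. Both terms also hold the day of each group. The first term is the contrast by which Tlr9 was chosen, so the interaction carries no test of its own. It is given as a value from which nothing is read. Over 18 alternatives it ran from 1.73 to 2.43. The levels of Tlr9 behind it were 10.84 and 10.14 with mRNA and antibody, 7.70 and 7.20 with mRNA, 9.62 and 9.50 with antibody, and 8.57 and 8.63 with neither.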

How the results depend on the processing

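The settings tried were array medians set equal, quantile normalization, cyclic loess, a mean level of at least 6, the mean of a gene's clusters, every cluster on its own, a trended robust prior, array weights per group, the groups compared alone, a replicate block, and the omission of 1 array at a time. A lone remaining pool was assumed to vary as the other groups do. Over the differences of the 9 members in 6 comparisons these gave 999 values, of which 896 kept direction and side of the threshold, 43 lost a call, 34 gained one and 26 turned direction, none of those called in the analysis as reported. The level minimum gave no value for Tlr7, Irf7 and Irf9, and no interaction can be fitted on the groups of 1 comparison alone. Calls over all genes changed with the setting too. The cause of these changes was not tested.

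With antibody alone against non-manipulated embryos, 1 to 7 members were called when arrays were left out in turn, and 0 with only the groups compared. In Trim21 mRNA against non-manipulated embryos 1 member was called with array weights and 1 with only the groups compared, where 3739 and 2519 of all genes were called. Between the 2 antibody groups 1 member was called with array weights and 0 with only the groups compared, where 2001 and 1408 of all genes were called. Here the number changed with arrays left out as well, among members and all genes. Comparing the full treatment to non-manipulated embryos, the number of calls changed with arrays left out, among members and all genes. The interaction gave 2 after quantile normalization, 2 after cyclic loess and 2 with the level minimum, where 1253, 1115 and 1592 of all genes were called. With equal medians and with the trended robust prior it gave 0 and 0, where 842 and 878 of all genes were called. Its counts also changed with arrays left out, among members and all genes. Nothing is read from these counts, since the interaction shares the choosing contrast.

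Replicate numbers did not pair the arrays, and with the replicate block the members called were 4, 3, 0, 2, 5 and 1 in the 6 comparisons, as without it. Over all genes the block gave 6052 calls for the full treatment against Trim21 mRNA (7126 without it) and 2320 for antibody alone (3083 without it). With the antibody-alone numbers crossed, a setting chosen after seeing the data, antibody alone gave 2 members and 2840 of all genes.

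Directions turned for uncalled values only. For Tlr3, the full treatment minus Trim21 mRNA was −0.09 with equal medians and −0.28 to 0.77 with arrays left out. Minus non-manipulated embryos it was 0.63 after quantile normalization, 0.47 after loess and −0.55 to 0.50 with arrays left out. Antibody alone minus non-manipulated embryos was −3.05 to 0.24 for Tlr3 with arrays left out, and the 2 antibody groups differed by −0.27 to 3.02. For Tlr7 the full treatment minus Trim21 mRNA was −0.13 after quantile normalization, −0.11 with equal medians and −0.14 after loess. Minus antibody alone it was −0.035 after quantile normalization, −0.045 with equal medians, −0.035 after loess and −0.17 to 0.41 with arrays left out, and its interaction ran from −0.45 to 0.13. Myd88 under Trim21 mRNA was 0.035 after quantile normalization, 0.035 after loess and −0.135 to 0.025 with arrays left out, and Irf9 was −0.04 there with equal medians. For Irf3 the 2 antibody groups differed by −0.015 with equal medians and by −0.11 to 0.42 with arrays left out. For Irf7 they differed by −0.12 to 0.68, and its interaction was −0.26 to 0.55 with arrays left out and −0.0013 after quantile normalization.

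Setting medians equal moved the median of all genes from 0.24 to −0.22 under the full treatment and from 0.18 to −0.11 with antibody alone, each against non-manipulated embryos. The medians set equal were those of all clusters, with or without a gene name, and not those of the genes. Signal near background limits Tlr7 on all arrays, Irf7 on 4, Irf9 on 3, and Tlr3 and Irf3 on 1.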
